A study of Mus musculus with 16 samples.

Results

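MHC class II presentation genes were followed in goblet cells and other epithelial cells of the colon, in mice labelled Spdef knockout and in their wild-type counterparts. The set was fixed by symbol and holds 8 of the 21442 genes counted: H2-Aa, H2-Ab1, H2-Eb1, H2-DMa, H2-DMb1, H2-DMb2, Cd74 and Ciita. Distal colons of mice aged 6 to 8 weeks were dissociated and sorted, and RNA of the sorted cells was sequenced in 16 libraries. SpdefKO_GC denotes mCherry-positive goblet cells and SpdefKO_EC the mCherry-negative epithelial cells (labelled colonocytes) of Spdef-/- RedMUC298trTg mice, and WT_GC and WT_EC the same fractions of RedMUC298trTg mice, with 4 libraries in each group. All groups carry the RedMUC298trTg transgene, in which mCherry is tied to the mucin MUC2, so a goblet cell without reporter signal would be sorted into EC. The gate was set with a C57Bl6 mouse that lacks the reporter, per the labels' protocols. Lysates of goblet cells were purified on MinElute columns and those of the other cells on Mini columns, so fraction and purification cannot be told apart. Libraries are named by group and by the S number of their label.

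MHC class II molecules display peptides from the endosomal pathway to CD4+ T cells. An alpha and a beta chain pair in the endoplasmic reticulum around the invariant chain, and in late endosomes DM molecules swap the remaining invariant chain fragment for peptide. Transcription of these genes depends on the transactivator CIITA, which is recruited by factors bound to the X and Y boxes of their promoters. Professional antigen-presenting cells express them constitutively, and gut epithelial cells are known to express them after interferon-gamma.

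Promoter stretches are shown for the members in which shared elements were found. Promoters of 5 of the 8 members were taken from the RefSeq promoter table of GRCm38.p6, the assembly also called mm10, and searched. The searched genes with motifs were H2-Aa, H2-Eb1, H2-DMb1 and H2-DMb2. Each line gives the 130 bases before the RefSeq start, 5′ to 3′ on the gene's strand. The regions are chr17:34287824-34287953 (minus strand) for H2-Aa, and on the plus strand chr17:34305737-34305866 for H2-Eb1, chr17:34153061-34153190 for H2-DMb1 and chr17:34145119-34145248 for H2-DMb2. Capitals mark the Y box core TGATTGG, and upstream of it an X box form (AAC, any 3 bases, then TGATG) or, in H2-Aa, the palindrome TGACGTCA of cyclic AMP response elements.
H2-Aa: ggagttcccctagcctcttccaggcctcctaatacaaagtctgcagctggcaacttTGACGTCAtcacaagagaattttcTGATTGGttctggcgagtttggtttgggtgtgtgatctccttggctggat
H2-Eb1: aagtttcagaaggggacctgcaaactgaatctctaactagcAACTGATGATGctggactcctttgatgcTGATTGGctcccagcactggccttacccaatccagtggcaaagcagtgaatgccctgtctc
H2-DMb1: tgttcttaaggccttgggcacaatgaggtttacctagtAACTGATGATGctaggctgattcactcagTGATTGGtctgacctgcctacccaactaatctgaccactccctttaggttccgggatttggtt
H2-DMb2: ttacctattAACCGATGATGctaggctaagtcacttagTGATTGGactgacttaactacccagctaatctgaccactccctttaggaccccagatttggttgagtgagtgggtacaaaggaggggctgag

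The Y box core lay 50 bases before the start in H2-Aa, 61 in H2-Eb1, 63 in H2-DMb1 and 92 in H2-DMb2. Between the upstream element and the Y box core were 16 bases in H2-Aa, 17 in H2-Eb1 and 18 in each of H2-DMb1 and H2-DMb2. The 3 motifs were chosen after these sequences had been read and were searched on both strands of the 250 bases before each start, where no match overlapped another. TGATTGG occurred in 7.23% of 32851 promoter windows of that length, the X box form in 0.539% and TGACGTCA in 1.55%. The Y box core together with either of the other motifs occurred in 0.177% of the windows. H2-DMa had 2 windows in the table, and none of the 3 strings was found in them. No RefSeq promoter entry was found for H2-Ab1 or Ciita, and chromosome 18, where Cd74 lies, was left out of the search of members. Whether these 3 members carry the elements was therefore not tested.

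Spdef encodes an ETS transcription factor of goblet cell maturation. Levels are given as CPM, the count of a gene scaled to the sum of all gene counts of its library. Spdef lies at chr17:27714352-27728955 (GRCm38), and the 6 H2 members lie 6.39 to 6.58 Mb from it on the same chromosome. Its count was not lower in goblet cells labelled knockout, with 300.4 to 470.4 CPM in SpdefKO_GC and 285 to 323 CPM in WT_GC (log2 0.33 ± 0.14, adjusted p = 0.116 by edgeR). In EC it stood at 1.09 to 3.31 CPM in SpdefKO_EC and 1.73 to 3.79 CPM in WT_EC. The sources used here do not give which part of the gene the allele lacks, and a whole-gene count does not check it, so SpdefKO stands throughout for libraries labelled SpdefKO. Gene counts summed to 10085637 to 17111987 per library. The fractions matched their labels, since the goblet mucin Muc2 averaged 13010 CPM in SpdefKO_GC and 12480 CPM in WT_GC, against 26.7 CPM in SpdefKO_EC and 47.4 CPM in WT_EC, and Slc26a3, the chloride exchanger of absorptive colonocytes, averaged 78.9 CPM in SpdefKO_GC and 56.7 CPM in WT_GC, against 1541 CPM in SpdefKO_EC and 2025 CPM in WT_EC.

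Taken over all members, class II transcripts were higher in both fractions labelled SpdefKO than in their WT counterparts. The summed CPM of the 8 members was 45.9, 64.2, 27.0 and 18.7 in SpdefKO_GC libraries 3, 5, 7 and 19, against 10.05, 9.99, 9.80 and 10.1 in WT_GC libraries 9, 11, 13 and 18. It was 158, 188, 115 and 53.4 in SpdefKO_EC libraries 4, 6, 8 and 20, against 37.5, 41.2, 28.4 and 31.7 in WT_EC libraries 10, 12, 14 and 17. Every library labelled SpdefKO thus lay above every WT library of its fraction, and the libraries labelled SpdefKO spread over a wide range while those of WT lay close together. In bulk libraries, fewer cells of a type that express a gene and less RNA per cell cannot be told apart. Whether each library stands for a mouse of its own is not stated in the labels, and the p-values therefore measure library-to-library spread, part of which may be technical.

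Differences were tested with the edgeR quasi-likelihood test over all 12915 genes that passed a filter on low counts, and a gene is said to have risen or fallen where the Benjamini-Hochberg adjusted p was under 0.05. Of the 8 members, 7 passed that filter and H2-DMb2 did not. H2-Aa, H2-Eb1, H2-DMa, Cd74 and Ciita held only 9 to 57 counts each over the 4 WT_GC libraries together, so they passed it through other groups and the counts of members are descriptions. In goblet cells 5 of the 7 rose in SpdefKO_GC over WT_GC and none fell, where 10.4% of all genes tested rose (21.4% changed in either direction). Their median log2 fold change was 3.08, against 0.0014 over all genes. In EC all 7 tested members rose in SpdefKO_EC over WT_EC, where 6.09% of all genes tested rose and 6.54% fell (12.6% in either direction), with a median log2 fold change of 1.99, against 0.005 over all genes. The CPM ranges of the groups did not overlap for 4 members, all higher, in goblet cells, where 12.3% of genes stood apart in that direction. The same held for 5 members in EC, where the share of all genes was 4.36%. Log2 fold changes are given with an approximate standard error, and CPM as mean ± SD with n = 4 libraries per group. The genotype comparisons in goblet cells and in EC use separate libraries. Goblet and EC libraries with adjacent S numbers deviated together, however, so these comparisons may not be independent. Each comparison between fractions shares its libraries with the genotype comparisons.

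**Figure D1:**
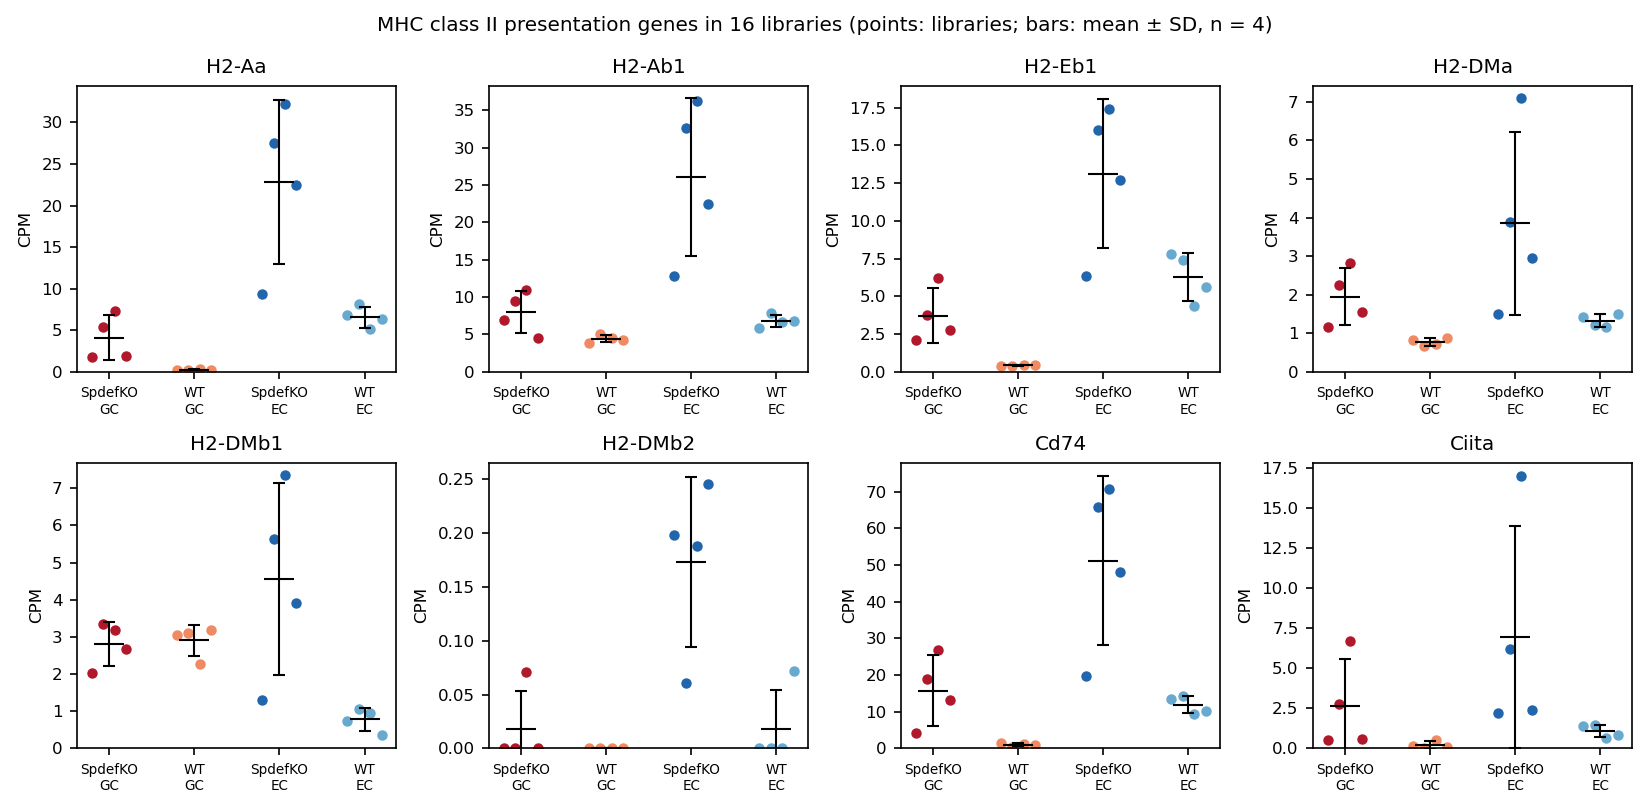
CPM of each member (one panel each, linear axis from 0) in the 16 libraries, by group; points are libraries and bars the mean ± SD of 4. H2-Aa, H2-Eb1, H2-DMa and Cd74 are higher in every SpdefKO_GC library than in any WT_GC library, H2-DMb1 overlaps between the goblet groups, and H2-DMb2 is at or near 0 outside SpdefKO_EC.

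H2-Aa encodes the alpha chain of the classical class II molecule I-A (chr17:34282744-34287823, minus strand). It had 5.35, 7.29, 1.86 and 1.82 CPM in SpdefKO_GC libraries 3, 5, 7 and 19, against 0.272, 0.234, 0.199 and 0.365 CPM in WT_GC libraries 9, 11, 13 and 18. All SpdefKO_GC libraries lay above all WT_GC libraries, and libraries 3 and 5 lay above 7 and 19. In EC it had 27.5, 32.2, 22.5 and 9.32 CPM in SpdefKO_EC libraries 4, 6, 8 and 20, against 6.83, 8.14, 5.10 and 6.31 CPM in WT_EC libraries 10, 12, 14 and 17. Again the groups did not overlap, with SpdefKO_EC library 20 the closest to WT. H2-Aa averaged 4.08 ± 2.70 CPM in SpdefKO_GC and 0.267 ± 0.0715 CPM in WT_GC and rose, by 3.94 ± 0.70 in log2 units (adjusted p = 0.00111). It averaged 22.9 ± 9.88 CPM in SpdefKO_EC and 6.59 ± 1.26 CPM in WT_EC and rose by 1.84 ± 0.38 (adjusted p = 0.00628). The levels ran SpdefKO_EC, WT_EC, SpdefKO_GC, WT_GC from high to low, and the ranges of the neighbours WT_EC and SpdefKO_GC overlapped.

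H2-Ab1 encodes the beta chain that pairs with the H2-Aa product (chr17:34257689-34269419, plus strand). It had 9.43, 10.96, 4.54 and 6.97 CPM in SpdefKO_GC libraries 3, 5, 7 and 19, against 4.21, 3.92, 5.10 and 4.56 CPM in WT_GC libraries 9, 11, 13 and 18. The goblet groups overlapped, because SpdefKO_GC library 7 lay among the WT_GC libraries. Among EC libraries it had 32.6, 36.3, 22.5 and 12.8 CPM in SpdefKO_EC libraries 4, 6, 8 and 20, against 5.84, 7.84, 6.70 and 6.74 CPM in WT_EC libraries 10, 12, 14 and 17, with no overlap. H2-Ab1 averaged 7.98 ± 2.82 CPM in SpdefKO_GC and 4.45 ± 0.509 CPM in WT_GC, and its log2 fold change of 0.85 ± 0.31 did not pass the test (adjusted p = 0.0618). It passed without SpdefKO_GC library 7 (log2 1.05, adjusted p = 0.0197), with DESeq2 (adjusted p = 0.0185) and with only the goblet libraries fitted (adjusted p = 0.0244), within a range of 0.0185 to 0.185 over 14 alternatives. In EC it averaged 26.03 ± 10.6 CPM in SpdefKO_EC and 6.78 ± 0.822 CPM in WT_EC and rose by 1.99 ± 0.28 (adjusted p = 0.000334). The levels ran SpdefKO_EC, SpdefKO_GC, WT_EC, WT_GC, and the ranges of SpdefKO_GC and WT_EC overlapped.

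H2-Eb1 encodes the beta chain of the second classical class II molecule, I-E (chr17:34305867-34316674, plus strand). It had 3.77, 6.22, 2.76 and 2.11 CPM in SpdefKO_GC libraries 3, 5, 7 and 19, against 0.475, 0.409, 0.397 and 0.456 CPM in WT_GC libraries 9, 11, 13 and 18. The groups did not overlap, and WT_GC libraries were nearly equal. In EC it had 16.04, 17.4, 12.7 and 6.35 CPM in SpdefKO_EC libraries 4, 6, 8 and 20, against 7.82, 7.39, 4.37 and 5.59 CPM in WT_EC libraries 10, 12, 14 and 17. SpdefKO_EC library 20 fell among the WT_EC libraries, so these groups overlapped. H2-Eb1 averaged 3.71 ± 1.81 CPM in SpdefKO_GC and 0.434 ± 0.0371 CPM in WT_GC and rose, by 3.08 ± 0.48 in log2 units (adjusted p = 0.00023). It averaged 13.1 ± 4.93 CPM in SpdefKO_EC and 6.29 ± 1.61 CPM in WT_EC and rose by 1.11 ± 0.29 (adjusted p = 0.0205). The call in EC was lost without SpdefKO_EC library 4 (log2 0.99, adjusted p = 0.0702), WT_EC library 14 (0.96, adjusted p = 0.0558) or WT_EC library 17 (1.05, adjusted p = 0.0645) and with no filter on low counts (adjusted p = 0.054), within a range of 0.00314 to 0.0702 over 14 alternatives. From high to low the groups stood in the order SpdefKO_EC, WT_EC, SpdefKO_GC, WT_GC, with overlapping ranges between SpdefKO_EC and WT_EC and between SpdefKO_GC and WT_EC.

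Cd74 encodes the invariant chain, the chaperone that fills the groove of new class II molecules and guides them to endosomes (chr18:60803848-60812652, plus strand). It had the highest level per length of all members in every group other than WT_GC. Cd74 had 18.9, 26.9, 13.04 and 4.07 CPM in SpdefKO_GC libraries 3, 5, 7 and 19, against 0.951, 1.46, 0.331 and 1.19 CPM in WT_GC libraries 9, 11, 13 and 18. The lowest SpdefKO_GC library lay above the highest WT_GC library. Among EC libraries it had 65.9, 70.8, 48.1 and 19.8 CPM in SpdefKO_EC libraries 4, 6, 8 and 20, against 13.5, 14.2, 9.46 and 10.3 CPM in WT_EC libraries 10, 12, 14 and 17, also with no overlap. Cd74 averaged 15.7 ± 9.62 CPM in SpdefKO_GC and 0.982 ± 0.481 CPM in WT_GC and rose, by 3.99 ± 0.64 in log2 units (adjusted p = 0.000497). It averaged 51.2 ± 23.1 CPM in SpdefKO_EC and 11.8 ± 2.33 CPM in WT_EC and rose by 2.16 ± 0.45 (adjusted p = 0.00699). Its levels ran SpdefKO_EC, SpdefKO_GC, WT_EC, WT_GC, with overlapping ranges between SpdefKO_EC and SpdefKO_GC and between SpdefKO_GC and WT_EC. Mir5107 lies inside Cd74, and shared reads were not resolved.

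H2-DMa encodes the alpha chain of DM, the peptide exchange factor (chr17:34119541-34139101, plus strand). It had 2.25, 2.83, 1.56 and 1.16 CPM in SpdefKO_GC libraries 3, 5, 7 and 19, against 0.883, 0.818, 0.662 and 0.729 CPM in WT_GC libraries 9, 11, 13 and 18. The goblet groups did not overlap. In EC it had 3.87, 7.09, 2.94 and 1.49 CPM in SpdefKO_EC libraries 4, 6, 8 and 20, against 1.43, 1.21, 1.17 and 1.51 CPM in WT_EC libraries 10, 12, 14 and 17, where SpdefKO_EC library 20 lay just below WT_EC library 17. H2-DMa averaged 1.95 ± 0.738 CPM in SpdefKO_GC and 0.773 ± 0.097 CPM in WT_GC and rose, by 1.32 ± 0.41 in log2 units (adjusted p = 0.0294). It averaged 3.85 ± 2.38 CPM in SpdefKO_EC and 1.33 ± 0.166 CPM in WT_EC and rose by 1.60 ± 0.35 (adjusted p = 0.00695). The goblet call was lost without SpdefKO_GC library 3 (adjusted p = 0.0632) or 5 (0.0914), without WT_GC library 11 (0.0579), 13 (0.0783) or 18 (0.0573) and with limma-voom (0.0674), within a range of 0.00892 to 0.0914 over 14 alternatives. The gene overlaps Brd2 on the opposite strand, and no source used here gives the strand setting of the counting, so its count is uncertain; Brd2 stood at log2 0.19 ± 0.10 in goblet cells (adjusted p = 0.192) and 0.11 ± 0.10 in EC (adjusted p = 0.535). Its levels ran SpdefKO_EC, SpdefKO_GC, WT_EC, WT_GC, with overlap between SpdefKO_EC and SpdefKO_GC and between SpdefKO_GC and WT_EC.

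H2-DMb1 encodes a beta chain of DM (chr17:34153072-34160230, plus strand) and stood at nearly the same mean level in both goblet groups. It had 3.34, 3.18, 2.68 and 2.03 CPM in SpdefKO_GC libraries 3, 5, 7 and 19, against 3.19, 3.04, 3.11 and 2.28 CPM in WT_GC libraries 9, 11, 13 and 18. These ranges overlapped almost fully. Among EC libraries it had 5.63, 7.34, 3.92 and 1.29 CPM in SpdefKO_EC libraries 4, 6, 8 and 20, against 0.745, 1.06, 0.946 and 0.358 CPM in WT_EC libraries 10, 12, 14 and 17, with no overlap. H2-DMb1 averaged 2.81 ± 0.59 CPM in SpdefKO_GC and 2.91 ± 0.422 CPM in WT_GC, with a log2 fold change of -0.06 ± 0.35 (adjusted p = 0.926), which became 0.07 without SpdefKO_GC library 19 (adjusted p = 0.921, and 0.848 to 0.991 over 14 alternatives). It averaged 4.55 ± 2.58 CPM in SpdefKO_EC and 0.776 ± 0.307 CPM in WT_EC and rose by 2.62 ± 0.40 (adjusted p = 0.000441). Its levels ran SpdefKO_EC, WT_GC, SpdefKO_GC, WT_EC, and the range of SpdefKO_EC overlapped those of both goblet groups.

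H2-DMb2 encodes the other DM beta chain (chr17:34143307-34151555, plus strand) and was almost absent. It had 0, 1, 0 and 0 counts in SpdefKO_GC libraries 3, 5, 7 and 19 and 0 counts in each WT_GC library. It had 1, 3, 4 and 2 counts in SpdefKO_EC libraries 4, 6, 8 and 20, against 0, 0, 0 and 1 in WT_EC libraries 10, 12, 14 and 17. The 10 counts of SpdefKO_EC against 1 of WT_EC gave a ratio of 9.69 after library totals, with a 95% exact interval of 1.38 to 421 that covers counting error only. Both goblet groups stayed under 3 counts over the group, the limit that a count of 0 allows (0.0519 CPM in SpdefKO_GC and 0.0518 CPM in WT_GC), so no fold between these 2 groups is given. Ratios of SpdefKO_EC to a group with 1 count are imprecise, as their intervals show. H2-DMb1 and H2-DMb2 are close relatives, and other H2 genes resemble each other, so reads may be shared between them and their split is uncertain.

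Ciita encodes the transactivator of the class II genes (chr16:10480059-10528418, plus strand). It had 2.80, 6.72, 0.596 and 0.508 CPM in SpdefKO_GC libraries 3, 5, 7 and 19, against 0.0679, 0.117, 0 and 0.547 CPM in WT_GC libraries 9, 11, 13 and 18. SpdefKO_GC libraries 3 and 5 stood high, and library 19 lay below WT_GC library 18, so the groups overlapped. In EC it had 6.23, 17.01, 2.39 and 2.18 CPM in SpdefKO_EC libraries 4, 6, 8 and 20, against 1.37, 1.43, 0.655 and 0.860 CPM in WT_EC libraries 10, 12, 14 and 17, with no overlap. Ciita averaged 2.66 ± 2.91 CPM in SpdefKO_GC and 0.183 ± 0.247 CPM in WT_GC and rose, by 4.02 ± 1.25 in log2 units (adjusted p = 0.0332). It averaged 6.95 ± 6.96 CPM in SpdefKO_EC and 1.08 ± 0.381 CPM in WT_EC and rose by 2.73 ± 0.81 (adjusted p = 0.04). Both calls sat close to the threshold. With only the goblet libraries fitted, Ciita did not pass the filter on low counts and gave no value. In goblet cells the call was lost without SpdefKO_GC library 3 (adjusted p = 0.0589) or 5 (log2 3.03, adjusted p = 0.127), without WT_GC library 9 (0.0804), 11 (0.0836) or 13 (0.0965), with limma-voom (0.12) and with no filter (0.0846), and without WT_GC library 18 the log2 fold change was 5.22 (0.038), within a range of 0.00154 to 0.127 over 13 alternatives. In EC it was lost without SpdefKO_EC library 4 (adjusted p = 0.0787) or 6 (log2 1.81, adjusted p = 0.118), without any 1 of the WT_EC libraries 10, 12, 14 and 17 (0.0821, 0.0717, 0.0890 and 0.101), with limma-voom (0.107), with no filter (0.0931) and with only the EC libraries fitted (0.0572), within a range of 0.0266 to 0.118 over 14 alternatives. Ciita overlaps Dexi on the opposite strand, so its count is uncertain too, and shared reads were not tested. Dexi, at a mean of 10.97 CPM in SpdefKO_GC and 12.1 CPM in WT_GC, did not pass the test in goblet cells (log2 -0.15 ± 0.12, adjusted p = 0.428) or in EC (log2 0.16 ± 0.13, adjusted p = 0.444). The order of Ciita levels was SpdefKO_EC, SpdefKO_GC, WT_EC, WT_GC, with overlapping ranges between SpdefKO_EC and SpdefKO_GC and between SpdefKO_GC and WT_EC, whereas WT_GC lay below WT_EC without overlap.

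**Figure D2:**
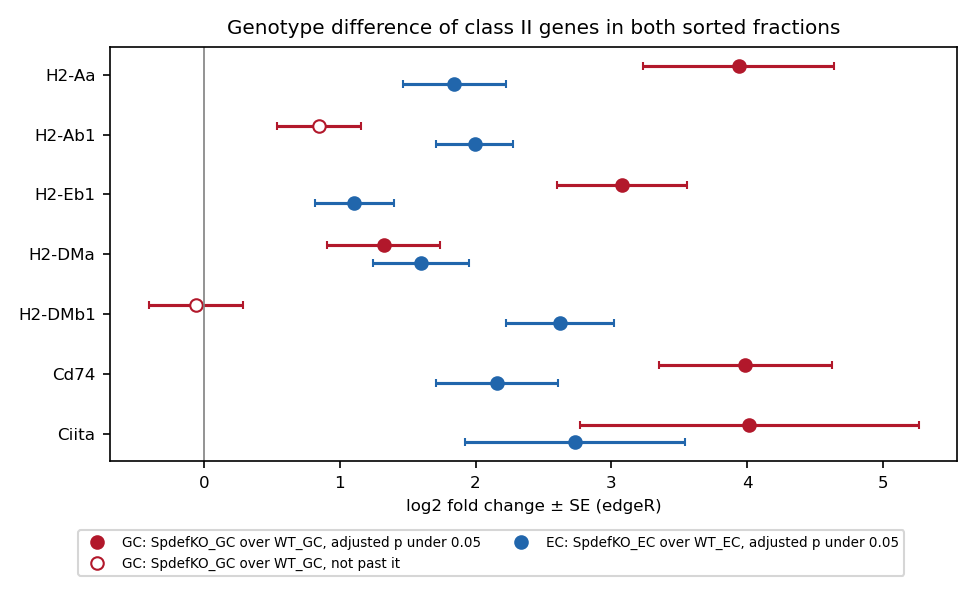
Log2 fold change ± approximate SE of the 7 tested members, SpdefKO over WT, in goblet cells (red) and other epithelial cells (blue); filled points passed an adjusted p under 0.05. All 7 points are filled in EC, and H2-Ab1 and H2-DMb1 are open in goblet cells.

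The chains of a complex did not keep the same proportion in every group. Between genes, levels are compared as CPM per kilobase of the exon union of GENCODE vM21. Per kilobase, H2-Ab1 stood at 2.89 times H2-Aa in SpdefKO_GC and 24.6 times in WT_GC, and at 1.68 times in SpdefKO_EC and 1.52 times in WT_EC, as ratios of group means. By library this ratio ran over 2.23 to 5.68 in SpdefKO_GC and 18.5 to 38.0 in WT_GC, which did not overlap. The DM chains showed the same kind of gap, with H2-DMb1 at 2.95 times H2-DMa per kilobase in SpdefKO_GC and 7.71 times in WT_GC, and at 2.42 times in SpdefKO_EC and 1.20 times in WT_EC. WT_GC was thus the group in which H2-Ab1 and H2-DMb1, each at 1.73 CPM per kilobase, led the members, while Cd74 stood at 0.585, H2-Eb1 at 0.223 and H2-Aa at 0.0703 CPM per kilobase. In SpdefKO_EC the order was Cd74 at 30.5, H2-Ab1 at 10.1, H2-Eb1 at 6.75, H2-Aa at 6.03, H2-DMb1 at 2.70, H2-DMa at 1.12 and Ciita at 0.729 CPM per kilobase. Differences in these ratios were not tested.

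Between the fractions of WT mice, H2-Aa, H2-Eb1 and Cd74 were lower and H2-DMb1 was higher in goblet cells. By the main test, which has no block, the share of members that changed was near that of all genes. H2-Aa fell by 4.70 ± 0.66 on the log2 scale in WT_GC relative to WT_EC (adjusted p = 1.61e-05), H2-Eb1 fell by 3.92 ± 0.45 (adjusted p = 7.49e-07) and Cd74 fell by 3.66 ± 0.65 (adjusted p = 0.000167). H2-DMb1 went the other way and rose by 1.83 ± 0.42 (adjusted p = 0.000984). Of the 7 tested members 3 thus fell, where 30.2% of all genes fell, and 1 rose, where 31.0% rose (61.2% in either direction). H2-Ab1 (log2 -0.69 ± 0.31, adjusted p = 0.0689), H2-DMa (-0.85 ± 0.44, adjusted p = 0.102) and Ciita (-2.80 ± 1.43, adjusted p = 0.105) did not pass, although the CPM ranges of all 7 stood apart, with 6 lower (26.2% of all genes) and 1 higher (34.5%). With adjacent S numbers as a block, all of them passed, H2-Ab1 at -0.69 (adjusted p = 0.00672), H2-DMa at -0.84 (adjusted p = 0.00804) and Ciita at -2.81 (adjusted p = 4.56e-05), so that 6 fell and 1 rose. The share of all genes called under that block is not given here, so these counts of members are descriptions only. Without WT_GC library 18 the log2 fold change of Ciita was -4.01 (adjusted p = 0.0774). Over the alternatives the adjusted p ran from 0.000576 to 0.166 for H2-Ab1, from 0.00495 to 0.185 for H2-DMa and from 4.56e-05 to 0.211 for Ciita.

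In mice labelled SpdefKO, class II members were also lower in goblet cells than in the other epithelium. H2-Aa fell by 2.61 ± 0.40 on the log2 scale in SpdefKO_GC relative to SpdefKO_EC (adjusted p = 4.3e-05), H2-Eb1 fell by 1.95 ± 0.31 (adjusted p = 3.69e-05) and H2-Ab1 fell by 1.83 ± 0.28 (adjusted p = 2.72e-05). Cd74 fell by 1.83 ± 0.44 (adjusted p = 0.00231), H2-DMa fell by 1.13 ± 0.33 (adjusted p = 0.00765) and H2-DMb1 fell by 0.85 ± 0.33 (adjusted p = 0.0366). These were 6 of the 7 tested members, where 28.4% of all genes fell and 28.0% rose (56.4% in either direction), and the CPM ranges of 3 stood apart as lower, as did those of 19.7% of all genes. Ciita (log2 -1.52 ± 0.72, adjusted p = 0.0857) did not pass, but passed with adjacent S numbers as a block (-1.53, adjusted p = 1.9e-06) and without SpdefKO_GC library 5 (-2.51, adjusted p = 0.0133), SpdefKO_EC library 8 (-1.81, 0.0492) or 20 (-1.80, 0.042), while it stood at -0.59 without SpdefKO_EC library 6 (0.493), the highest p of 15 alternatives. The call for H2-DMb1 was lost without SpdefKO_GC library 7 (adjusted p = 0.0709) or 19 (0.0937), without SpdefKO_EC library 4 (0.0951) or 6 (log2 -0.55, adjusted p = 0.162) and with upper-quartile scaling (0.0651), limma-voom (0.113), no filter (0.0563) or only these groups fitted (0.0987), within a range of 0.000569 to 0.162, and that for H2-DMa without SpdefKO_EC library 6 (log2 -0.67, adjusted p = 0.0567, the highest of 15 alternatives). H2-DMb2 held 1 count in SpdefKO_GC and 10 in SpdefKO_EC, where the ratio of SpdefKO_EC over SpdefKO_GC was 9.82 with an interval of 1.40 to 426.

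Whether the genotype difference itself differed between the fractions was tested as an interaction, the log2 difference in goblet cells minus that in EC. It was positive for H2-Eb1 (1.97 ± 0.58, adjusted p = 0.0426), which rose more in goblet cells, and negative for H2-DMb1 (-2.68 ± 0.53, adjusted p = 0.00417), which rose in EC only. Of the tested members 1 was thus higher, where 4.88% of all genes were, and 1 lower, where 4.65% were (9.53% in either direction). H2-Aa (2.09 ± 0.88, adjusted p = 0.154), Cd74 (1.83 ± 0.82, adjusted p = 0.184), H2-Ab1 (-1.15 ± 0.42, adjusted p = 0.099), Ciita (1.28 ± 1.67, adjusted p = 0.7) and H2-DMa (-0.28 ± 0.57, adjusted p = 0.82) did not pass. With adjacent S numbers as a block, H2-Aa (2.08, adjusted p = 0.00214), Cd74 (1.81, adjusted p = 0.000127) and H2-Ab1 (-1.13, adjusted p = 0.00533) passed as well, and 3329 genes passed in all, against 1231 without it. The H2-Eb1 call was lost without any 1 of SpdefKO_GC libraries 3 and 5 (adjusted p = 0.058 and 0.0781), WT_GC libraries 9, 11, 13 and 18 (0.0745, 0.0894, 0.097 and 0.0715), SpdefKO_EC library 8 (0.0644) or WT_EC libraries 10, 12 and 17 (0.0722, 0.0765 and 0.0602), with no filter (0.104) and with limma-voom (0.136), and its adjusted p ran from 7.41e-05 to 0.136 over 22 alternatives. That for H2-Ab1 was gained without SpdefKO_EC library 20 (log2 -1.34, adjusted p = 0.0145) and with DESeq2 (0.0468), within a range of 0.00533 to 0.21. Where a low level in WT_GC sets the ratio, as for H2-Aa at 15 counts over 4 libraries, the fold change is imprecise.

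Goblet and EC libraries with adjacent S numbers were set side by side. From high to low, the SpdefKO_GC libraries stood in the order 5, 3, 7, 19 and the SpdefKO_EC libraries in the adjacent order 6, 4, 8, 20 for 5 of the 7 tested members, namely H2-Aa, H2-Eb1, H2-DMa, Cd74 and Ciita. The exceptions were H2-Ab1, where SpdefKO_GC library 7 was lowest, and H2-DMb1, where SpdefKO_GC library 3 was highest. In WT the order was shared for 0 of the 7. The EC library was above its adjacent goblet library in 27 of 28 comparisons of a member within a pair in SpdefKO and in 24 of 28 in WT, and the exceptions were H2-DMb1 in SpdefKO libraries 19 and 20 and in all 4 WT pairs. Libraries of a group differed among themselves, with the highest over the lowest at 6.61 for Cd74 and 13.2 for Ciita in SpdefKO_GC, and at 3.57 and 7.80 in SpdefKO_EC. In WT_GC it was 4.41 for Cd74, above the value in SpdefKO_EC, and Ciita ran from 0 to 0.547 CPM, while the other 5 tested members lay at 1.20 to 1.84. In WT_EC these ratios lay at 1.29 to 2.95 for the 7 tested members.

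**Figure D3:**
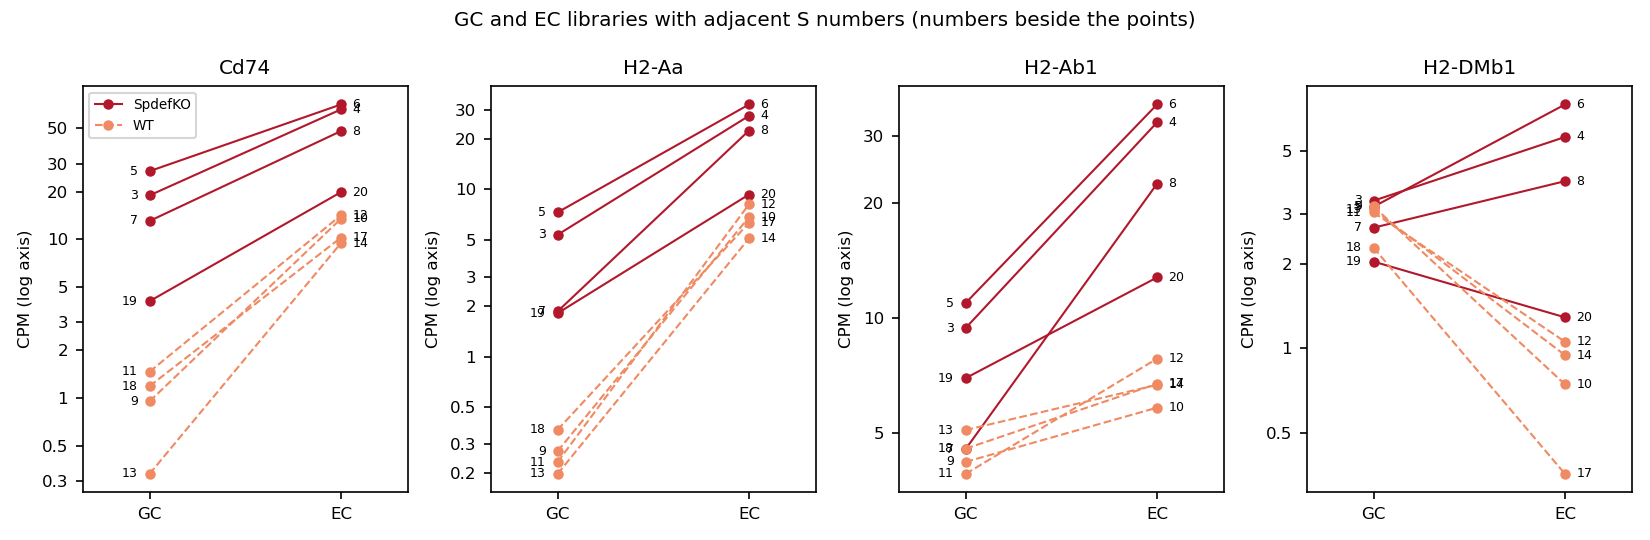
CPM (log axis) of Cd74, H2-Aa, H2-Ab1 and H2-DMb1 in goblet and EC libraries joined by adjacent S numbers, which stand beside the points; solid red lines are SpdefKO and dashed orange lines WT. Libraries 5, 3, 7, 19 and 6, 4, 8, 20 keep their order for Cd74 and H2-Aa, and the WT lines of H2-DMb1 run downward from goblet cells to EC.

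Other genes of the pathway were taken from lists chosen with earlier results of these data known. Of 13 further class II genes and regulators 8 were tested. None rose and 1 fell in SpdefKO_GC, the ubiquitin ligase gene March8 (log2 -0.34 ± 0.07, adjusted p = 0.00263), with a list median of 0.0506. In EC only Rfx5, a subunit of the factor that binds the X box, rose (0.43 ± 0.14, adjusted p = 0.0434), whereas in goblet cells it stood at 0.36 ± 0.13 (adjusted p = 0.0618). H2-Oa, H2-Ob and H2-Eb2 were near the limit of detection, with 2, 5 and 1 counts over the SpdefKO_GC libraries, 1, 2 and 1 over WT_GC, 3, 9 and 4 over SpdefKO_EC and 0, 5 and 3 over WT_EC. H2-Ea-ps, the row of the I-E alpha chain and annotated as a polymorphic pseudogene, had 1 count over SpdefKO_GC and 0 over each other group. Of 14 genes of endolysosomal processing 13 were tested, and 0 rose and 5 fell in SpdefKO_GC, with the largest changes in the intramembrane protease Sppl2a (-0.61 ± 0.06, adjusted p = 1.43e-06) and the saposin precursor Psap (-0.45 ± 0.07, adjusted p = 0.000157). Also lower there were the lysosomal membrane proteins Lamp2 (-0.30 ± 0.07, adjusted p = 0.00444) and Lamp1 (-0.24 ± 0.07, adjusted p = 0.0214). In EC 0 rose and 3 fell, among them Ctss, the protease that trims the invariant chain (log2 -0.47 ± 0.08, adjusted p = 0.000724), which averaged 295 CPM in SpdefKO_EC and 419.5 CPM in WT_EC. Of 11 costimulatory and coinhibitory ligands 6 were tested, and by edgeR 0 passed in either genotype comparison. At an unadjusted p under 0.05 there were 3 in goblet cells and 2 in EC, DESeq2 called 1 in each, and limma-voom called 0 in goblet cells and 1 in EC. Their median log2 fold changes were 0.114 in goblet cells and -0.151 in EC, and the largest estimate in goblet cells was that of Cd86 (log2 2.80 ± 1.02, adjusted p = 0.0581), at 10 counts in SpdefKO_GC and 1 in WT_GC.

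Interferon-gamma signalling and target genes that passed the test were, with 1 exception, higher in cells labelled SpdefKO. Of 29 genes 27 were tested, 8 rose and 1 fell in SpdefKO_GC (median log2 0.96), and 12 rose and 0 fell in SpdefKO_EC (median log2 1.36), against the shares of all genes given above. These counts depended on the tool, since limma-voom called 3 in goblet cells and 2 in EC and DESeq2 called 13 and 16. The GTPase genes Iigp1 (log2 4.89 ± 1.33, adjusted p = 0.0194), Tgtp2 (4.60 ± 1.38, adjusted p = 0.0282) and Tgtp1 (3.90 ± 1.31, adjusted p = 0.0482) had large changes in goblet cells. The gene that fell was Ifngr2, a subunit of the interferon-gamma receptor (log2 -0.26 ± 0.09, adjusted p = 0.0387). Nlrc5, the class I counterpart of Ciita, had 8.39, 23.2, 3.35 and 1.53 CPM in SpdefKO_GC libraries 3, 5, 7 and 19, against 0.272, 0.526, 0.199 and 0.729 CPM in WT_GC libraries 9, 11, 13 and 18. The groups did not overlap, library 5 was highest and library 19 lowest, and Nlrc5 rose by 4.43 ± 0.97 (adjusted p = 0.00495), and by 3.36 ± 0.74 in EC (adjusted p = 0.00919).

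The genes nearest in pattern to the members were ranked by Pearson's r between log2 CPM and the mean log2 CPM of the 7 tested members over the 16 libraries. The highest were the proteasome activator subunit Psme1 and the interferon-inducible GTPase Ifi47 (0.966 each), Nlrc5 and Psmb8 (0.961 each), the interferon response factor Irf9 (0.949) and the guanylate-binding protein Gbp2 (0.944). After subtraction of each group's mean they were Gbp2 (0.958), Nlrc5 (0.955), Iigp1 (0.949), the nucleic acid sensor Zbp1 (0.948), the immunoproteasome subunit Psmb9 (0.944) and Gm12250 (0.938). Among the members r with that mean was 0.925 to 0.972, except for H2-DMb1 at 0.313, and the closest pair was H2-Aa and H2-Eb1 at 0.993. After subtraction of group means H2-DMb1 stood at 0.748 and the other members at 0.834 to 0.963. These values describe 16 libraries that share groups and adjacent numbers, and the mean contains the members themselves.

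Neighbours of the class II region were examined because the region lies on the same chromosome as Spdef. Of 22 listed neighbours, all tested, 3 rose and 2 fell in SpdefKO_GC (median log2 0.12), where 21.4% of all genes changed in either direction. In SpdefKO_EC 2 rose and 1 fell (median 0.13), where 12.6% of all genes changed. DESeq2 called 7 neighbours in all in EC and limma-voom 3. Taken in either direction, the edgeR counts lay near those shares of all genes. Neighbours with an annotated position lie between 6.15 and 6.84 Mb from Spdef. In goblet cells the immunoproteasome subunit Psmb8 (1.28 ± 0.41, adjusted p = 0.0398), the kinesin Kifc1 (0.61 ± 0.21, adjusted p = 0.0437) and the receptor Notch4 (0.48 ± 0.09, adjusted p = 0.00078) rose. H2-Ke6 (-0.42 ± 0.09, adjusted p = 0.0019) and the Polycomb gene Ring1 (-0.32 ± 0.09, adjusted p = 0.0123) fell. Among neighbours at 6.45 to 6.63 Mb, Tap1 stood at 1.47 ± 0.55 in goblet cells (adjusted p = 0.0763) and 1.575 ± 0.54 in EC (0.0732). Psmb9 stood at 1.015 ± 0.49 (0.156) and 1.47 ± 0.47 (0.0543), and Tap2 at 0.32 ± 0.22 (0.345) and 0.44 ± 0.22 (0.205). Btnl2 stood at 1.04 ± 0.63 in goblet cells (0.255) and rose in EC, at 0.795 ± 0.25 (0.0418). The members Cd74 and Ciita, on chromosomes 18 and 16, rose in both fractions. The part of chromosomal position in the class II result was not tested.

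**Figure D4:**
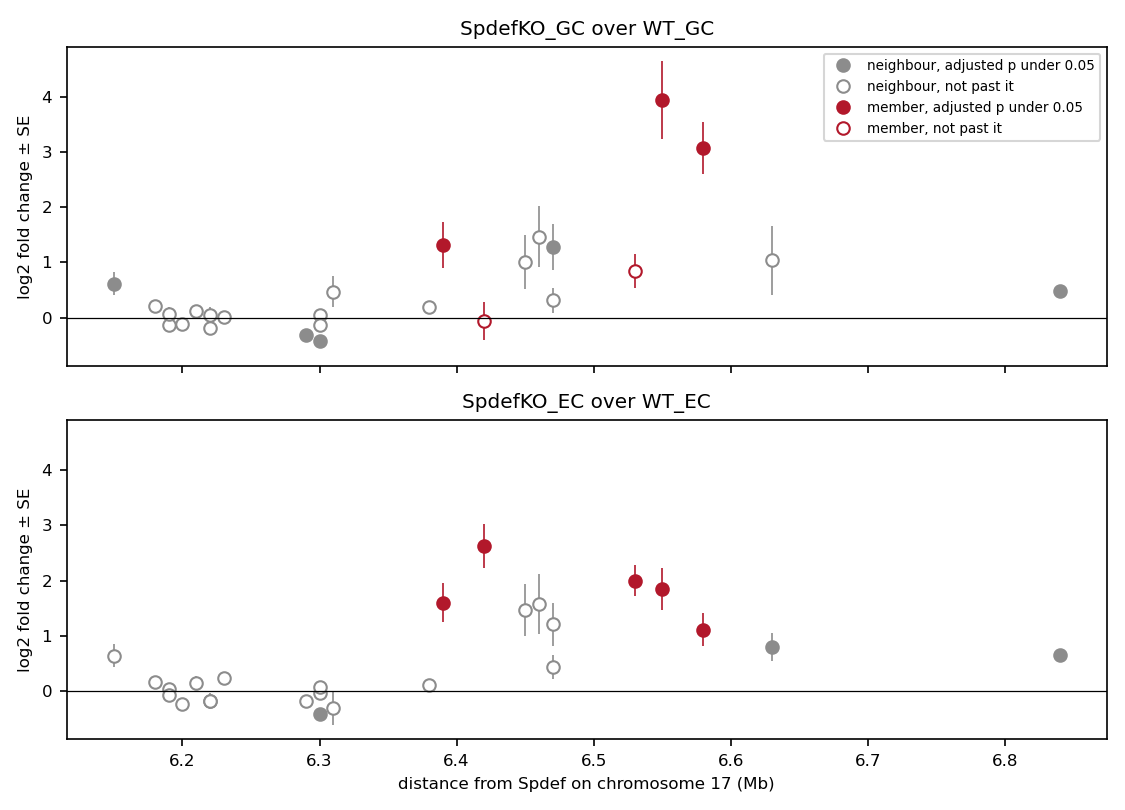
Log2 fold change ± approximate SE of class II members (red) and their neighbours with an annotated position (grey) by distance from Spdef on chromosome 17 in Mb. Goblet cells are at the top and EC at the bottom, and filled points passed an adjusted p under 0.05. Most neighbours between 6.15 and 6.38 Mb lie near 0, and members from 6.39 to 6.58 Mb are filled except for H2-DMb1 and H2-Ab1 in goblet cells. The neighbours Psmb9, Tap1 and Psmb8, at 6.45 to 6.47 Mb, lie above 0 in both panels.

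Markers of other cells were measured beside these results. The summed CPM of 9 leukocyte markers, mostly Lcp1 and Vav1, was 47.2 to 56.1 in SpdefKO_GC and 41.1 to 43.03 in WT_GC, and 28.0 to 43.7 in SpdefKO_EC and 29.1 to 35.8 in WT_EC. Of the 7 tested, 1 rose and 0 fell in SpdefKO_GC, and 1 rose and 1 fell in SpdefKO_EC. Ptprc, which defines leukocytes, averaged 1.55 CPM in SpdefKO_GC and 1.66 CPM in WT_GC (log2 -0.08 ± 0.27, adjusted p = 0.867), and 6.11 CPM in SpdefKO_EC and 5.57 CPM in WT_EC (0.19 ± 0.20, adjusted p = 0.573). Neither Ptprc difference passed the test. Elsewhere in the list, Rac2 averaged lower in goblet cells (0.338 CPM in SpdefKO_GC and 0.43 CPM in WT_GC). Vav1 fell in EC (log2 -0.58 ± 0.19, adjusted p = 0.049), and others stood higher. The median log2 fold change of those tested was 0.31 in goblet cells and 0.46 in EC, where 4 of 7 had an unadjusted p under 0.05. Laptm5 averaged 0.17 CPM (10 counts) in SpdefKO_GC and 0.0335 CPM (2 counts) in WT_GC, and 1.32 CPM in SpdefKO_EC and 0.698 CPM in WT_EC. Cd53 averaged 0.138 CPM (8 counts) in SpdefKO_GC and 0.0316 CPM (2 counts) in WT_GC, and 1.28 CPM in SpdefKO_EC and 0.726 CPM in WT_EC. The summed markers did not overlap between the goblet groups, and their part in the class II result was not tested.

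Mononuclear phagocyte markers, 19 in number, summed to 10.8 to 15.1 CPM in SpdefKO_GC and 8.54 to 11.3 CPM in WT_GC, and to 11.8 to 17.8 CPM in SpdefKO_EC and 13.97 to 18.3 CPM in WT_EC. Of 8 tested, 3 rose and 1 fell in SpdefKO_GC and, by edgeR, 0 passed in EC, where 1 had an unadjusted p under 0.05 and DESeq2 and limma-voom called 0. The integrin genes Itgax (log2 1.58 ± 0.45, adjusted p = 0.0267) and Itgam (1.27 ± 0.22, adjusted p = 0.000427) and the receptor gene Csf1r (1.70 ± 0.55, adjusted p = 0.0343) rose in goblet cells, and Mrc1 fell (-0.95 ± 0.22, adjusted p = 0.00469). Itgax, which marks dendritic cells, averaged 0.375 CPM in SpdefKO_GC and 0.12 CPM in WT_GC, and Cd209a was at 0 in all groups other than SpdefKO_GC. In EC Itgax averaged 1.75 CPM in SpdefKO_EC and 1.26 CPM in WT_EC and did not pass (0.53 ± 0.23, adjusted p = 0.13). In goblet cells 3 of the 8 tested markers thus rose and 1 fell, while the summed markers overlapped between the genotypes. Their part in the class II result was not tested.

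Lymphocyte markers were low. The 12 B cell markers summed to 109 to 137 CPM in SpdefKO_GC and 88.3 to 118 CPM in WT_GC, and to 150.3 to 193 CPM in SpdefKO_EC and 148 to 189 CPM in WT_EC, of which nearly all was Blnk, with means of 122 CPM in SpdefKO_GC and 108 CPM in WT_GC. Cd79a, a defining B cell marker, had 2 to 4 counts per library (11 in all) in SpdefKO_GC and 0 to 1 (1 in all) in WT_GC, without overlap, and 7 in all in SpdefKO_EC and 9 in WT_EC. Cr2 held 9 counts in SpdefKO_GC and 3 in WT_GC, and Cd79b 3 in SpdefKO_GC and 0 in WT_GC. These low counts did not pass the filter, and of 2 B cell markers tested 0 passed in goblet cells by edgeR, DESeq2 or limma-voom (0 at an unadjusted p under 0.05) and 1 rose in EC, the immunoglobulin J chain gene Igj (1.73 ± 0.41, adjusted p = 0.0103). The 14 T cell markers summed to 4.10 to 4.94 CPM in SpdefKO_GC and 3.31 to 5.47 CPM in WT_GC, and to 6.05 to 8.66 CPM in SpdefKO_EC and 5.65 to 6.26 CPM in WT_EC, with Cd3e at 0 to 6 counts per library, and of 2 tested 0 passed in either genotype comparison by edgeR, DESeq2 or limma-voom, and 0 at an unadjusted p under 0.05. The 7 stromal markers summed to 8.19 to 10.5 CPM in SpdefKO_GC and 2.72 to 3.33 CPM in WT_GC, without overlap, and to 8.33 to 17.9 CPM in SpdefKO_EC and 14.4 to 30.96 CPM in WT_EC. Of 3 tested, 1 rose in goblet cells, the filament gene Vim (log2 2.07 ± 0.24, adjusted p = 7.75e-06), and in EC 0 passed by edgeR, DESeq2 or limma-voom, and 0 at an unadjusted p under 0.05. The part of these markers in the class II result was not tested.

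Markers of epithelial subtypes differed as well. The 9 absorptive colonocyte markers summed to 957 to 1194 CPM in SpdefKO_GC and 516 to 642 CPM in WT_GC, without overlap, and 7 of 9 rose, among them the sodium-proton exchanger Slc9a3 (log2 1.79 ± 0.21, adjusted p = 9.89e-06) and the keratin Krt20 (0.93 ± 0.16, adjusted p = 0.000663). Guca2a, a guanylin gene, made up much of that sum, at 566 CPM in SpdefKO_GC and 263 CPM in WT_GC. Guca2b, also among those that rose, was higher in goblet cells than in EC in these data (28.2 CPM in WT_GC and 4.18 CPM in WT_EC, log2 2.67 ± 0.14, adjusted p = 4.41e-12), against its place in the list. In EC, where class II transcripts rose too, the 9 markers summed to 8174 to 10090 CPM in SpdefKO_EC and 9027 to 9874 CPM in WT_EC, and 2 rose and 2 fell. Goblet markers summed to 56380 to 66930 CPM in SpdefKO_GC and 50430 to 57380 CPM in WT_GC, with 2 of 8 higher and 1 lower, and in EC 0 rose and 4 fell. Of 7 general epithelial markers 1 rose and 2 fell in goblet cells and 3 rose and 0 fell in EC. The part of these differences in the class II result was not tested.

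**Figure D5:**
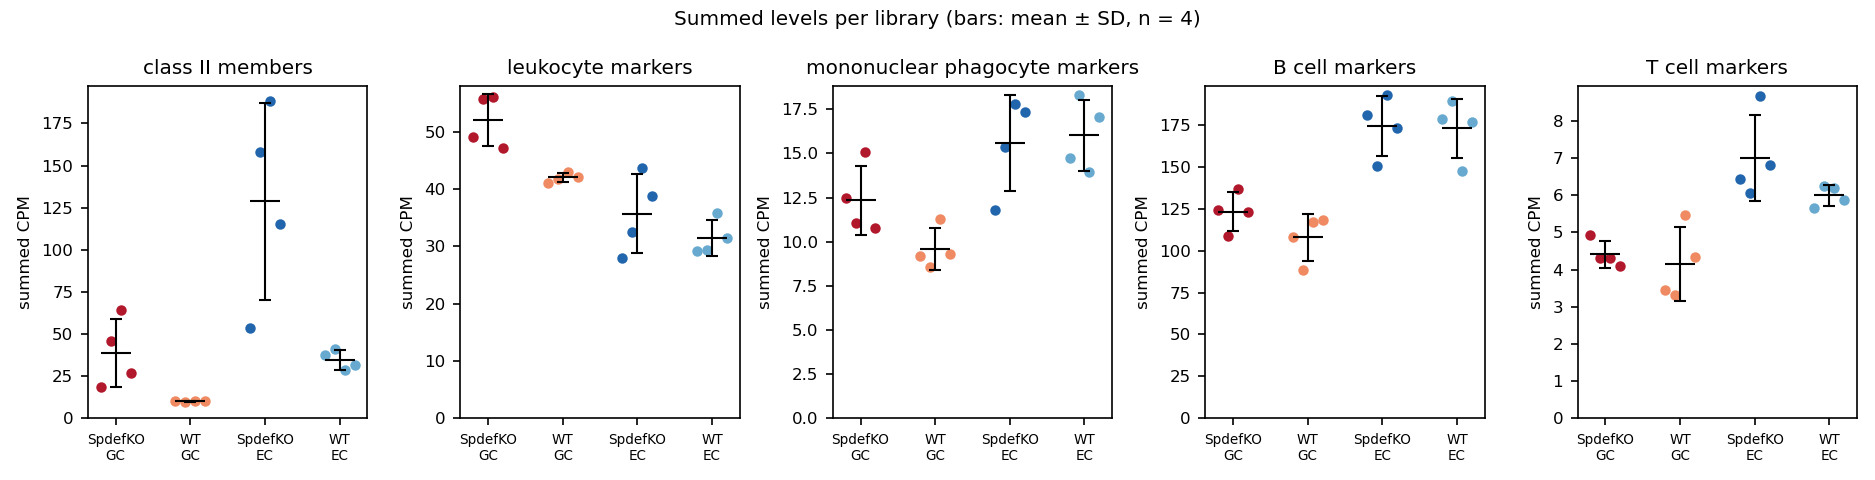
Summed CPM of the class II members and of leukocyte, mononuclear phagocyte, B cell and T cell markers in each library (linear axes from 0; points are libraries, bars the mean ± SD of 4). The class II sum spreads over 18.7 to 64.2 in SpdefKO_GC and over 9.80 to 10.1 in WT_GC. The leukocyte marker sum also stands apart in goblet cells (47.2 to 56.1 in SpdefKO_GC and 41.1 to 43.03 in WT_GC) and overlaps in EC. The other marker sums overlap between genotypes in both fractions, that of B cells being nearly all Blnk.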

How the data were processed

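The authors deposited raw counts of reads for each gene in the 16 libraries. Per the submitters' processing notes the tools were DESeq2 1.14, HTSeq 0.6.1p1, STAR 2.4.0f and FastQC 0.11.2 with build mm10, with no roles given. A second deposited table holds a signal, made by dividing each library's counts by a size factor, from which 27 symbols turned into dates were restored. The library kit is TruSeq Stranded Total RNA with ribosomal RNA removal, per the labels' protocols. Entries naming no gene held 47.1 to 54.7% of the total and were left out of every computation.

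Counts were tested with edgeR 4.0.16 (quasi-likelihood, robust, TMM, default filter by group with a minimum count of 10; R 4.3.3), with 1 coefficient for each of the 4 groups over all 16 libraries and Benjamini-Hochberg adjustment over 12915 genes. The SE is the absolute log2 change over the square root of F and is approximate. CPM in the text is not TMM-scaled. Gene models are GENCODE vM21. Alternatives were RLE and upper-quartile scaling, no filter, limma-voom (limma 3.58.1), DESeq2 1.42.0, only the groups compared, each library left out, and adjacent S numbers as a replicate block. The script was tested on simulated data.

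The labels do not say what adjacent S numbers share. Over genes, deviations from group means correlated at 0.125 to 0.613 between adjacent goblet and EC libraries. In all 8 pairs the adjacent library correlated best. The numbers were therefore treated as pairing the samples in an alternative fit, and its blocked values are printed where they change a call. The main test has no block, so its comparisons between fractions and its interaction do not use this pairing.

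Genes eligible for naming were all members, from each pathway or marker list up to 4 genes with the largest change past the threshold in SpdefKO_GC against WT_GC, the 3 marker genes of highest level, the defining markers, Spdef and the 6 genes most like the members by each measure. Named outside this rule, after their values were seen, were Rfx5, H2-Oa, H2-Ob, H2-Eb2, H2-Ea-ps, Ctss, Cd86, Ifngr2, Ring1, Brd2, Tap1, Tap2, Btnl2, Dexi, Cd209a, Laptm5, Cd53, Rac2, Cr2 and Cd79b. The members and lists were chosen with earlier results of these data known. Intervals and the limit of 3 counts cover counting error only.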

Additional observations from a re-analysis of the deposited data

Results flagged for a closer look

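Among 31 groups of 4 libraries examined, each member's values in each group, 3 held a library far from the others by Dixon's criterion (gap over range above 0.829). Chance gives about 1 such group in 20, a rate that does not apply to H2-DMb2, where any single count among zeros meets the criterion by construction. H2-DMb1 was lowest in WT_GC library 18, at 2.28 CPM against 3.04 to 3.19 CPM in the other WT_GC libraries (gap over range 0.833). H2-DMb2 was highest in SpdefKO_GC library 5, at 0.0707 CPM or 1 count, where the others had 0. H2-DMb2 was likewise highest in WT_EC library 17, at 0.0717 CPM or 1 count, where the others had 0.

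The genotype difference differed between goblet cells and EC, by the interaction test in edgeR, for H2-Eb1 (log2 1.97, adjusted p = 0.0426) and for H2-DMb1 (log2 -2.68, adjusted p = 0.00417).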

How the results depend on the processing

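Over 558 refits of single members under the alternatives, 490 kept their direction and their side of the threshold, 47 lost the call, 19 gained it and 2 changed sign. The sign changed for H2-DMb1 in SpdefKO_GC against WT_GC without SpdefKO_GC library 19 (log2 0.072) and for the H2-DMa interaction without SpdefKO_EC library 6 (log2 0.18), neither of which had been called; with 1 library left out they ranged over -0.14 to 0.072 and -0.51 to 0.18. The number of members that passed in SpdefKO_GC against WT_GC was 5, with 3 under limma-voom and 3 to 6 with 1 library left out. In SpdefKO_EC against WT_EC it was 7, and 5 to 7 with 1 library left out. With the replicate block of adjacent S numbers, 7 members passed in WT_GC against WT_EC instead of 4, and 5 passed the interaction instead of 2, where the count of all genes was 3329 instead of 1231; the block ended no call. Under no filter and under limma-voom 1 member passed the interaction, and 1 to 3 with 1 library left out. DESeq2 gave 6 members in WT_GC against WT_EC and 3 in the interaction, and only the groups compared gave 6 in WT_GC against WT_EC. For WT_GC against WT_EC the shares of all genes called under these settings and under the block are not given here. The same holds for the interaction under DESeq2, so these counts of members are descriptions only. SpdefKO_GC against SpdefKO_EC gave 4 to 7 members with 1 library left out.

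All genes past the threshold in SpdefKO_EC against WT_EC numbered 1631, with 1075 where only these groups were fitted and 940 to 2253 with 1 library left out, among them 940 without SpdefKO_EC library 4 and 1006 without WT_EC library 17. The cause was not tested. With upper-quartile scaling, 33.1% of the genes called in SpdefKO_EC against WT_EC were higher, against 48.3%, and 60.9% in SpdefKO_GC against SpdefKO_EC, against 49.7%, where the median of all genes shifted by 0.11 on the log2 scale. Ciita, H2-Aa, H2-Eb1 and Cd74 rest on few counts in WT_GC, which limits the precision of their fold changes, and differences in H2-DMb2 were not detectable at this depth in goblet cells.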
